A study of Canis lupus familiaris with 40 samples.

Results

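M-MDSCs of tumor-bearing dogs were set against monocytes of healthy dogs (H MONOs), and the comparison used every library labelled as either population, 5 M-MDSC and 3 H MONO libraries, which are 8 of the 40 in the series. Monocytes of tumor-bearing dogs (C MONOs, 8 libraries) took no part in choosing the changed genes and served as the third point for each of them. All populations were flow-sorted from canine peripheral blood, and RNA was sequenced after low-input library preparation with Smart-seq2. By the study's methods both kinds of monocyte were CD5-negative, CD21-negative, MHCII-positive, CD11b-positive and CD14-positive cells. M-MDSCs shared CD11b and CD14 but were MHCII-negative and negative for CADO48A, a canine neutrophil marker. M-MDSCs therefore differed from H MONOs in gate as well as in the health of the dog, while C MONOs shared the gate of H MONOs. The labels give neither the tumor type nor the age of a dog, and do not name the dog behind a library, so p-values measure the spread between libraries. Replicate numbers only name the libraries of a population in order of accession and pair nothing. M-MDSC replicates 1 to 5 are the libraries GAR4079A50, GAR4079A51, GAR4079A49, PAT4694A48 and PAT4694A50, and H MONO replicates 1 to 3 are GAR4079A52, GAR4079A53 and GAR4079A54. Values of single libraries are given in that order.

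Myeloid-derived suppressor cells are myeloid cells that expand in cancer and chronic inflammation and are known for restraining T cell responses. The monocytic subset carries the lipopolysaccharide co-receptor CD14, as monocytes do, but little or no MHC class II, the molecule with which monocytes present antigen to helper T cells. The study treated the M-MDSC name as tentative, because suppressive function was tested only in the other subset.

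M-MDSC libraries held between 22202374 and 41055367 counts on genes (median 32022168), H MONO libraries between 34302971 and 47962042 (median 45008262) and C MONO libraries between 19130545 and 46120634 (median 31981390). Between 12352 and 14279 genes were detected in an M-MDSC library, 13986 to 14336 in an H MONO library and 13045 to 14787 in a C MONO library. The prefix of a library's name, GAR4079 or PAT4694, is called its library series here. Series GAR4079 held the 3 H MONO libraries, 3 of the 5 M-MDSC and 4 of the 8 C MONO libraries. Genes appear in the files as Ensembl IDs that no file pairs with a name, and a symbol was found for 0 of 24580 IDs. The defining markers of monocytes were therefore not analysed here, and 2 IDs of each direction are named.

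In place of named markers, the identity of the libraries was examined with genes restricted to either lineage in C PMNs and C MONOs, populations outside the comparison. A gene was taken as MONO-restricted with a mean of at least 50 CPM (a library's counts scaled by its total on genes) in C MONOs, at least 50-fold less in C PMNs and no overlap between the libraries, and as PMN-restricted by the reverse. The 197 MONO-restricted genes made up between 6.45% and 9.05% of the counts in M-MDSCs, 10.5% to 11.3% in H MONOs and 9.23% to 13.4% in C MONOs. In C PMNs they held 0.0250% to 0.172%. The definition of the list sets its levels in C MONOs and C PMNs. H MONOs took no part in it but share the gate of C MONOs, which favours a higher level in H MONOs than in M-MDSCs. Each M-MDSC library was below every H MONO library.

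Of the 11965 genes tested with edgeR's quasi-likelihood test, 28 were called at an FDR of at most 0.05, which is 0.234% of those tested. Among these, 19 were higher in M-MDSCs (0.159%) and 9 were lower (0.0752%). The count depended on the test. At the same FDR it was 201 with edgeR's likelihood ratio test and 316 with DESeq2's Wald test. The called genes included, 1100 had an unadjusted p under 0.05, and the smallest adjusted p from edgeR beyond the threshold was 0.0505. Fold changes of the 19 higher genes ran from 2.88-fold to 37.1-fold (median 7.90-fold), and those of the 9 lower genes from 5.19-fold to 181-fold (median 8.25-fold). The higher genes included abundant transcripts. Per gene length, they stood at 2.32 to 2417 TPM in M-MDSCs (median 64.2 TPM) and at 0.264 to 322 TPM in H MONOs (median 9.45 TPM). The lower genes were of modest abundance in H MONOs, at 2.59 to 33.7 TPM, and 4 of the 9 had a mean under 1 CPM in M-MDSCs.

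The higher gene with the smallest FDR was ENSCAFG00000023401. Single-gene levels, except those set beside the PMN populations, use TMM factors of the 16 M-MDSC, C MONO and H MONO libraries. For ENSCAFG00000023401 the M-MDSC libraries stood at 34.2, 24.0, 57.4, 33.9 and 46.5 CPM and the H MONO libraries at 2.52, 2.65 and 2.21 CPM. C MONOs ranged from 0 to 8.90 CPM with a median of 4.05 CPM. No M-MDSC library overlapped with a library of either monocyte population, and the C MONO libraries lay on both sides of the narrow H MONO range. The log2 fold change of ENSCAFG00000023401 in M-MDSCs against H MONOs was 3.99 (standard error 0.37, adjusted p = 0.00916 from edgeR, n = 5 and 3).

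The next higher gene, ENSCAFG00000029470, was among the abundant transcripts. It was measured at 2093, 1013, 2235, 2276 and 1849 CPM in the M-MDSC libraries and at 186, 220.4 and 97.3 CPM in the H MONO libraries. C MONOs spread from 112 to 996 CPM around a median of 232 CPM, so that the highest C MONO library of ENSCAFG00000029470 came close to the lowest M-MDSC library without reaching it. The log2 fold change against H MONOs was 3.50 (standard error 0.38, adjusted p = 0.0117 from edgeR, n = 5 and 3).

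The lower gene with the smallest FDR, ENSCAFG00000031753, was close to absent from M-MDSCs. Its H MONO libraries stood at 17.3, 10.9 and 14.8 CPM, from 492 to 838 counts each. The M-MDSC libraries stood at 0, 0.144, 0.106, 0.0965 and 0.0386 CPM, from 0 to 5 counts each and 11 counts in all, so that the size of the fold rests on few reads. C MONOs ran from 0 to 7.66 CPM with a median of 1.11 CPM, and all 8 were below the lowest H MONO library. For ENSCAFG00000031753 the log2 fold change in M-MDSCs against H MONOs was -7.50 (standard error 0.79, adjusted p = 0.0117 from edgeR, n = 5 and 3).

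ENSCAFG00000002498 was the next lower gene and remained measurable in M-MDSCs. Its levels were 5.16, 4.93, 2.73, 4.05 and 5.71 CPM in M-MDSCs and 23.1, 26.9 and 32.4 CPM in H MONOs. C MONOs ranged from 1.60 to 18.6 CPM (median 9.97 CPM), and all 8 were below the H MONO range. The log2 fold change of ENSCAFG00000002498 was -2.60 (standard error 0.32, adjusted p = 0.0210 from edgeR, n = 5 and 3).

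**Figure D1:**
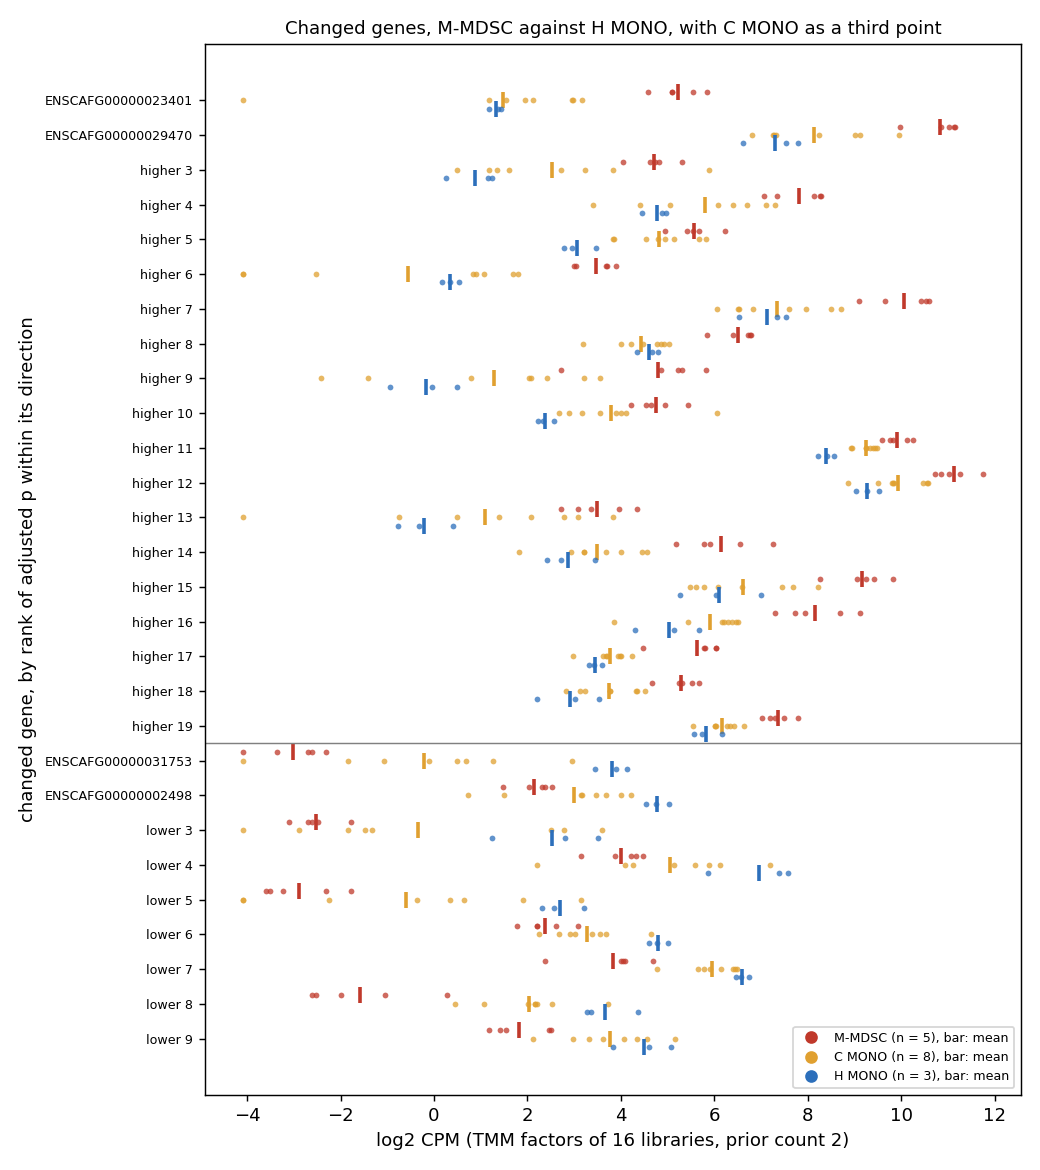
Level of each of the 28 changed genes in log2 CPM, with points for the 5 M-MDSC, 8 C MONO and 3 H MONO libraries and a bar at the mean of each population, and with the 19 higher genes above the grey line and the 9 lower genes below it. M-MDSCs and H MONOs, whose difference chose the genes, do not overlap in any of the 28, against 3.56% (higher) and 4.87% (lower) of all genes tested, and the C MONO mean on this log scale lies nearer to M-MDSCs in 3 of the higher and 6 of the lower genes, against 5 and 2 by the differences that edgeR fitted.

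C MONOs were then placed on the path from H MONOs to M-MDSCs for each changed gene, as the share of the log2 difference that the C MONO mean had covered. The mean of C MONOs lay between the other means in 26 of the 28 genes and was nearer to M-MDSCs in 9. For the 19 higher genes the share had a median of 0.281 and ranged from -0.292 to 0.703, and the C MONO mean was nearer to H MONOs in 16. In both genes outside the interval the mean log2 CPM of C MONOs was below that of H MONOs. In 1 of them C MONOs were the higher in mean CPM, at 1.53 against 1.22 CPM, since 3 C MONO libraries with 0 to 3 counts lower the mean on the log scale. For the 9 lower genes the share had a median of 0.589 and ranged from 0.235 to 0.679, and C MONOs were nearer to M-MDSCs in 6. This order of the directions depended on the scale. By the differences that edgeR fitted between C MONOs and H MONOs and between M-MDSCs and C MONOs, C MONOs were nearer to M-MDSCs in 5 of the 19 higher and 2 of the 9 lower genes, with a median share of 0.323 and 0.287. These are descriptions, and the difference between the directions was not tested. Since the genes were chosen for a difference between M-MDSCs and H MONOs, a mean between the extremes is favoured by the choice.

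M-MDSC and C MONO libraries overlapped in part of these genes. In 13 of the 19 higher genes every M-MDSC library was above every C MONO library, against 0.699% of the 11874 genes tested between these populations. In 2 of the 9 lower genes every M-MDSC library was below every C MONO library, against 0.766% of those tested. The genes were chosen for M-MDSC levels apart from H MONOs, which favours such gaps from C MONOs. The shares over all genes tested do not account for that choice.

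The same 28 genes were read in the remaining comparisons of the monocyte lineage, which share libraries with the main comparison and are therefore given side by side. Between C MONOs and H MONOs edgeR called 0 of 12566 genes tested (0%), with 938 at an unadjusted p under 0.05. None of the 28 was called there, and the smallest adjusted p from edgeR among them was 0.333. The study, also with edgeR, did report differing genes between monocytes of tumor-bearing and healthy dogs. It does not name the test within edgeR, and the reason for the difference was not tested. The log2 differences of C MONOs against H MONOs had a median of 0.86 in the higher genes, from -0.07 to 2.69, and of -1.44 in the lower genes, from -2.96 to -0.55. Between M-MDSCs and C MONOs edgeR called 90 of 11874 genes (0.758%). Of the 28 genes, 11 of the 19 higher and 2 of the 9 lower were called in that comparison, with log2 differences of M-MDSCs against C MONOs between 0.60 and 3.07 (median 1.93) over the 19 higher genes and with a median of -2.11, and a lowest value of -4.66, over the 9 lower genes. For ENSCAFG00000023401 and ENSCAFG00000029470 the log2 differences of M-MDSCs against C MONOs were 3.07 and 2.36, with adjusted p of 0.0440 and 0.0328 from edgeR. For ENSCAFG00000031753 and ENSCAFG00000002498 they were -4.50 and -1.15, with adjusted p of 0.129 and 0.312 from edgeR.

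The levels of the changed genes were also read in the PMN populations, in CPM without TMM factors, with 10 C PMN, 9 PMN-MDSC and 5 H PMN libraries. All libraries labelled as C PMN or PMN-MDSC were kept, although the description of the series counts fewer of both. All 19 higher genes had a higher median in C PMNs than in H MONOs, by 1.15-fold to 353-fold (median 29.0-fold), as did 24.6% of all genes tested. In 13 of the 19 the difference was at least 10-fold, which held for 2.51% of all genes tested. The median in H PMNs was above that in H MONOs for 18 of the 19, against 29.0% of all genes tested, and the median in PMN-MDSCs for all 19, against 25.5%. C PMNs also exceeded M-MDSCs in 16 of the 19, against 25.7%. These shares are descriptions without a test. The genes were chosen for a low level in H MONOs against M-MDSCs, or a high one for the lower genes, which favours PMN medians on the side of M-MDSCs, and the shares over all genes tested do not account for that choice. ENSCAFG00000023401 had a median of 777 CPM in C PMNs, 792 CPM in H PMNs and 321 CPM in PMN-MDSCs, against 34.8 CPM in M-MDSCs. ENSCAFG00000029470 had medians of 28711, 22598 and 42342 CPM in these populations, against 1970 CPM in M-MDSCs. Of the 9 lower genes, none had a higher median in C PMNs than in H MONOs, and 7 were at least 10-fold lower there, as were 27.2% of all genes tested. The median in H PMNs was above that in H MONOs for 1 of the 9, and that in PMN-MDSCs for 1. C PMNs had a higher median than M-MDSCs in 6 of the 9. ENSCAFG00000002498 had a median of 0.0200 CPM in C PMNs and ENSCAFG00000031753 of 0.715 CPM.

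The 30 PMN-restricted genes were then compared between M-MDSCs and H MONOs. Their definition used neither population, but was settled after values had been seen. All 30 were tested, and 5 were called higher in M-MDSCs and 0 lower, against 0.159% and 0.0752% of all genes tested. Their median log2 fold change was 3.01, against 0.01 over all genes tested. Over the 8 definitions of the list that were computed the median ran from 1.57 to 3.03, so that the value of 3.01 is near the upper end. In 15 of the 30 every M-MDSC library was above every H MONO library, which held for 3.56% of all genes tested. Outside the 5 called genes the median log2 fold change was 2.94 over the other 25. Together the 30 genes made up 0.420%, 0.273%, 0.456%, 0.506% and 0.497% of the counts in the M-MDSC libraries, against 0.0566%, 0.0661% and 0.0354% in the H MONO libraries. C MONOs ranged from 0.0284% to 0.196% with a median of 0.0660%, a level that the definition of the list keeps low. The 10 C PMN libraries, whose level the definition keeps high, ranged from 4.60% to 28.1% with a median of 7.11%. H MONOs took no part in the definition but share the gate of C MONOs, so that a low level there is favoured by it. Each H MONO library was below every M-MDSC library. The definition thus favours higher values in M-MDSCs than in H MONOs, and the shares over all genes tested do not account for that.

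Most of these counts came from the 5 called genes. Without them the list made up 0.0501%, 0.0687%, 0.0704%, 0.0687% and 0.109% of the counts in the M-MDSC libraries, 0.0111% to 0.0147% in H MONOs and 0.00430% to 0.0357% in C MONOs. The member with the most counts was ENSCAFG00000029470, which held 36.9% to 50.7% of the list's counts in the M-MDSC libraries (mean 42.4%). The most abundant member by TPM, another of the called genes, held 25.0%. No member was at 0 counts in any H MONO library, and 2 members were at 0 in at least 1 M-MDSC library. The excess of M-MDSCs over H MONOs came to a median of 3.65% of the C PMN level of the same gene, with quartiles of 2.36% and 5.75%. The M-MDSC gate was set to leave out CADO48A-positive cells. By the study's methods M-MDSCs and PMNs were both gated as MHCII-negative, and monocytes as MHCII-positive. In sorted bulk samples, a few cells of another type and low expression of the same genes in all cells cannot be told apart, and the part of PMN-restricted transcripts in the 19 higher genes was not tested.

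The MONO-restricted genes were compared in the same way. Of the 197 genes, all of which were tested, 1 was called lower in M-MDSCs and 0 higher, against 0.0752% and 0.159% of all genes tested. Their median log2 fold change was -0.37, against 0.01 over all genes tested. Of the 197, 152 were below 0 and 45 above, from -5.46 to 3.43. The list was chosen for a high level in C MONOs, which share the gate of H MONOs, and this favours lower values in M-MDSCs. In 38 of the 197 genes every M-MDSC library was below every H MONO library, against 4.87% of all genes tested, and in 5 every M-MDSC library was above every H MONO library, against 3.56%.

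**Figure D2:**
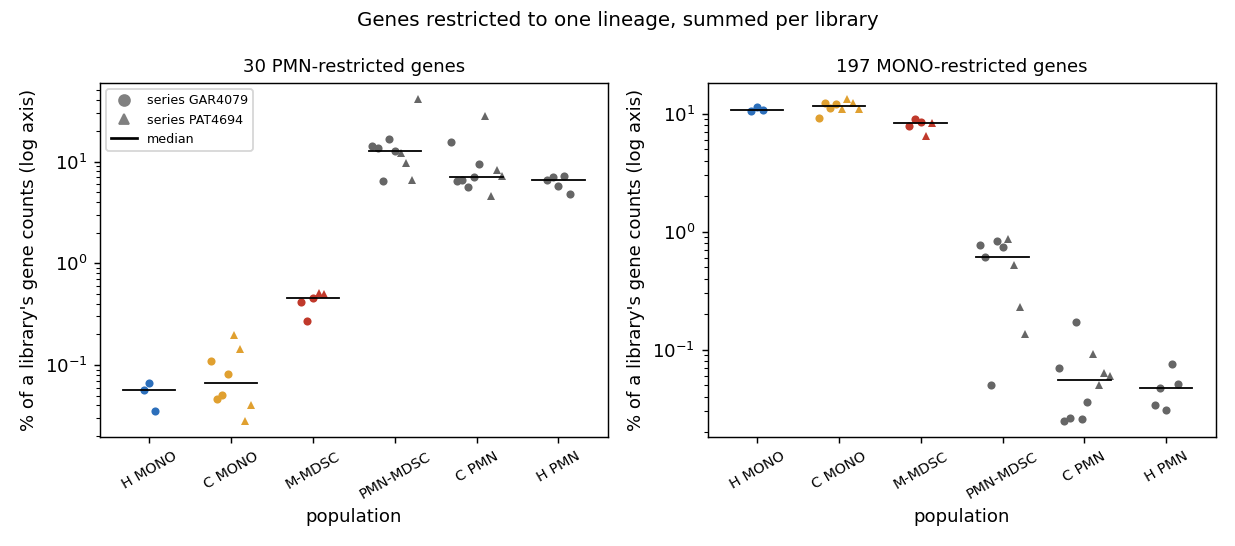
Share of a library's gene counts, in percent on a log axis, held by the 30 PMN-restricted genes and the 197 MONO-restricted genes in each library of the 6 populations, with circles for series GAR4079, triangles for series PAT4694 and a black line at the median. M-MDSC libraries lie between 0.273% and 0.506% for PMN-restricted genes, above all H MONO and C MONO libraries, and between 6.45% and 9.05% for MONO-restricted genes, below them, while the definition of the lists sets the levels in C PMNs and C MONOs. The gate that H MONOs share with C MONOs favours similar levels in H MONOs.

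Across all genes tested, the M-MDSC and H MONO libraries were not separated at 0.05. Pseudo-F, the variance between the populations over the variance within them, was 1.56 on log2 CPM, and population accounted for 20.7% of the variance (exact permutation test over 56 divisions, n = 5 and 3, p = 0.0714, where the smallest possible p is 0.0179). Distances between M-MDSC libraries, with a median of 179 and a range of 119 to 211, were as wide as those between M-MDSC and H MONO libraries, with a median of 175 and a range of 115 to 202. The H MONO libraries lay 95.3 to 105 apart.

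The number of called genes depended on the H MONO libraries. Without H MONO replicate 1 or 3 edgeR called 0 genes, with 792 and 778 at an unadjusted p under 0.05, and without replicate 2 it called 1. Within series GAR4079 alone 21 genes were called, 13 of them among the 28, and with the library series as a term 7 were called, 4 of them among the 28. In that fit the log2 fold change of ENSCAFG00000031753 was -7.41 with an adjusted p of 0.0520 from edgeR, and that of ENSCAFG00000002498 was -2.68 with an adjusted p of 0.0663 from edgeR.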

How the data were processed

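The authors trimmed the reads, aligned them with HISAT2 to CanFam3.1 and marked duplicates with Picard (1.92 in the submitters' processing notes). The deposited counts are the authors' featureCounts output for uniquely mapped reads on exons, without normalization. The deposited TPM values were scaled by the authors by gene length and library, and the length used is not stated. The 92 spike-ins were left out.

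The 5 M-MDSC and 3 H MONO libraries were fitted with edgeR 4.0.16 (TMM, filterByExpr, quasi-likelihood test) in R 4.3.3, with Benjamini-Hochberg adjustment over all genes tested. DESeq2 1.42.0 and limma 3.58.1 gave alternatives, and the test was tried on simulated data. Single-gene levels used a prior count of 2 on the log2 scale. Figures were drawn with matplotlib 3.10.9. The statements on depth cover counting error only. Pairs of libraries of a population differed far beyond sampling noise (chi-square per degree of freedom at least 102.8).

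The members and lists were chosen with earlier results of these data known. The rule for named genes was the 2 IDs of each direction with the smallest FDR where IDs have no symbols. Another higher gene tied with ENSCAFG00000029470 at an adjusted p of 0.0117 from edgeR and was left unnamed. In that gene C MONOs reached 59.4 CPM, above the M-MDSC range of 16.5 to 39.3 CPM. Its log2 difference of M-MDSCs against C MONOs was 1.15 (adjusted p = 0.537 from edgeR). Marker and pathway lists need symbols and were not analysed here. The lineage-restricted lists were settled after values had been seen, among 8 definitions that were all computed. They use CPM without TMM factors, because these ranged from 0.149 to 1.59 over the 40 libraries, against 0.881 to 1.07 over the 16 of the monocyte lineage.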

Additional observations from a re-analysis of the deposited data

Results flagged for a closer look

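Each of 20 sets of values, in M-MDSCs and in C MONOs, was searched for a library far from the others by Dixon's criterion, which chance meets in about 1 of 20 sets. A single set met it. ENSCAFG00000031753, the lower gene with the smallest FDR, stood at 7.66 CPM in C MONO replicate 1 (GAR4079A58), while the other 7 C MONO libraries stood between 0 and 2.34 CPM. The library remained below the lowest H MONO library.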

How the results depend on the processing

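The count of 28 called genes moved by over 1.5 times under several alternatives. It was 44 with no filter, 316 with DESeq2's Wald test, 201 with edgeR's likelihood ratio test, 43 with limma voom, 7 with the library series as a term, 1 at an FDR of 0.01 and 0 with all 40 libraries in a single fit (844 genes at an unadjusted p under 0.05). All 28 were among the genes called by DESeq2 and by the likelihood ratio test, and 21 were among those of limma voom, of which 44.2% were higher in M-MDSCs in place of 67.9%. A single fit of the M-MDSC, C MONO and H MONO libraries called 30 genes, of which 15 were among the 28, and a pair of named genes lost their call there. These were ENSCAFG00000023401 (log2 fold change 3.99, adjusted p = 0.0868 from edgeR, 9.31e-27 to 0.242 over its alternatives) and ENSCAFG00000002498 (log2 fold change -2.60, adjusted p = 0.0685 from edgeR, 6.59e-11 to 0.83 over its alternatives). The cause of these differences was not tested. With a library left out the count ranged from 0 to 57. It was 57 without M-MDSC replicate 1, 44 without replicate 2, 14 without replicate 3 and 7 without replicate 4, and 0, 1 and 0 without H MONO replicates 1, 2 and 3. Leaving out an H MONO library leaves a population of 2.

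The named genes kept their direction under all 20 alternatives. ENSCAFG00000023401 and ENSCAFG00000029470 kept their call in 15, ENSCAFG00000031753 in 14 and ENSCAFG00000002498 in 12, and all 4 lost it whenever an H MONO library was left out and in the fit of all 40 libraries. Their log2 fold changes stayed between 3.80 and 4.15, 3.22 and 3.74, -7.90 and -7.12, and -2.71 and -2.47, in the same order. Pseudo-F stayed short of separation in every alternative, from 1.12 to 2.11, where series GAR4079 alone could not go below an exact p of 0.1. The number of changed genes with C MONOs nearer to M-MDSCs ranged from 7 to 10 over its alternatives, of which the differences fitted by edgeR (7) were added after seeing the data. The lineage lists, with alternatives chosen after seeing the data, had a median log2 fold change of 1.57 to 3.03 over 8 definitions for PMN-restricted genes (30 to 146 members) and -0.37 to -0.31 for MONO-restricted genes (96 to 354 members). Under other scalings, in series GAR4079 alone and with a library left out, the medians ran from 2.76 to 3.34 for PMN-restricted genes. For MONO-restricted genes they ran from -0.447 to -0.298. No paired analysis was possible because the labels name no dog and number no replicates, and the numbers used here only name libraries.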
